A study of Mus musculus with 4 samples.

Results

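Principal 11 is a population of principal cells found mainly in the libraries of the cauda epididymis and the vas deferens, and is labelled here as their border. The paper matched it by marker genes to the most distal segment of the epididymis. The place of its cells in the tissue was not measured here. Principal 11 was taken as the single deposited population holding 244 cells, of 3956 principal cells and 8880 cells in all. Of its cells, 141 came from the cauda library, 100 from the vas deferens library and 3 from the corpus library, and 0 of 736 caput principal cells belonged to it, which allows a share of up to 0.408% when the limit is taken as 3 cells.

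The data are single-cell RNA counts from 4 libraries made on the 10x droplet platform, 1 for each of 3 epididymal regions (caput, corpus and cauda) and 1 for the vas deferens, all from FVB/NJ male mice 10 to 12 weeks old. The tissue of 8 epididymides from 4 mice was pooled for each region before the libraries were made, and sperm were depleted from the suspension. The paper states that the margins of dissection were shifted slightly from sample to sample, so as to recover all cell types at the borders. Region, library and dissection therefore cannot be told apart, no value has replicates, and no test between libraries was possible. All groups share strain, sex and age, and no allele, treatment or time differs between them. The study describes the same protocol for all regions, but the regions were cut up separately and ambient RNA was estimated for each library. The populations are the authors' own clusters, built from these same counts, so a difference between populations is a description and not a test. The clustering placed 220 of the 244 cells in a cauda-rich cluster in its first round, 12 in a vas deferens cluster and 10 in a corpus cluster, before all principal cells were clustered again. Of all 8880 cells, 86 shared a barcode with a cell of another library, 3 of them in principal 11. A search for doublets called 178 cells, of which 2 were in principal 11. The number called was set beforehand by an assumed rate of 0.8% per 1000 cells of a library. At these calls 43.4% of simulated doublets were recovered in the cauda library and 66.9% in the vas deferens library, so that some may remain.

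Principal cells are the tall absorptive and secretory cells that line the epididymal duct. Along the duct they change the proteins they secrete, and in the cauda, where sperm are stored, their products include cysteine-rich secretory proteins, beta-defensins and protease inhibitors that coat sperm. The duct then continues as the vas deferens, whose lining cells are known in the mouse for a very high level of Akr1b7, an aldose reductase family member long called mouse vas deferens protein.

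Levels are given in UPM, the UMIs (counted RNA molecules) of a gene in all cells of a group for every 1000000 UMIs that those cells hold. Intervals are 95% intervals and cover counting error only. They do not cover differences between animals or dissections. A gene was counted as higher or lower where the levels of the groups differed by at least 2-fold and the higher group had at least 20 UMIs, and a group with fewer than 3 UMIs was raised to 3. Principal 11 cells were shallow, with a median of 659.5 UMIs (799 in the cauda cells and 547 in the vas deferens cells), against 1101 in principal 10 and 1414 in principal 12 to 15. Only 38.1% of them had 1000 UMIs or more.

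**Figure D1:**
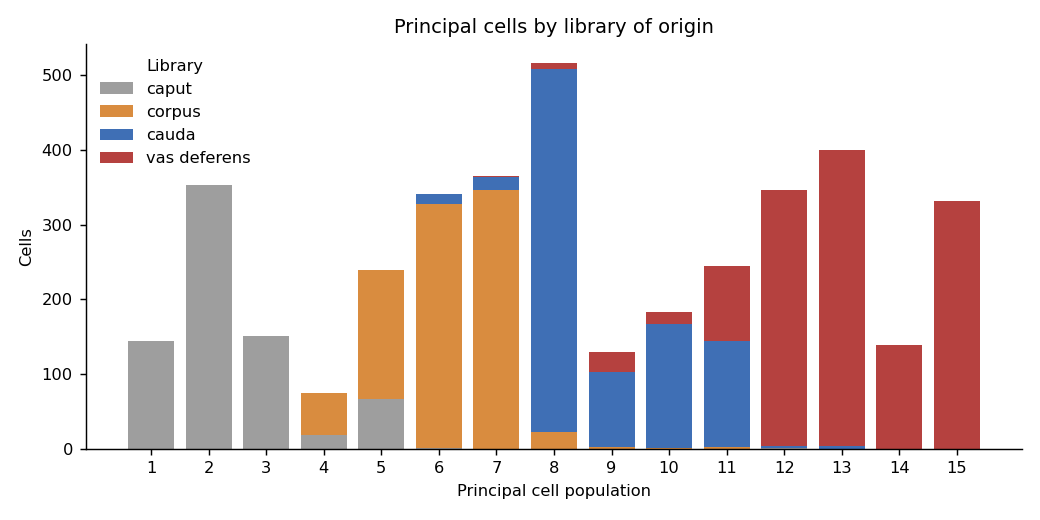
Number of cells (vertical axis) of each of the 15 principal populations (horizontal axis), stacked by the library they came from. Principal 11 holds 141 cauda and 100 vas deferens cells, whereas the populations to its left are mostly from the epididymis and principal 12 to 15 are almost wholly from the vas deferens.

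Its 141 cells made up 15.1% of the 931 principal cells of the cauda library (95% Clopper-Pearson interval 12.9 to 17.6%). In the vas deferens library its 100 cells were 7.35% of 1360 principal cells (6.02 to 8.87%). Cauda cells were 57.8% of the population (51.3 to 64.1%), a share that was 69.9% among cells with at least 1000 UMIs.

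The label was checked against the 3 markers given for the population. Crisp1 (chr17:40293758-40319207, mm10), which encodes a secreted protein that binds the sperm surface, reached 195180 UPM in principal 11 (193743 to 196625), or 19.5% of all its UMIs. This was the highest of the 15 principal populations, 1.24-fold that of principal 10 (157547 UPM) and 6.59-fold that of principal 12 to 15 (29602 UPM). Wfdc10 and Spink10, both small secreted protease inhibitors, were not at their highest here. Wfdc10 stood at 14223 UPM in principal 11 and at 31748 UPM in principal 10. Spink10 stood at 4501 UPM in principal 11 and at 7217 UPM in principal 10. Both were far above principal 12 to 15, where Wfdc10 was at 180 UPM and Spink10 at 19.4 UPM. The 3 markers together thus set the cells apart from the vas deferens populations, but not from principal 10.

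Markers of most other cell types were low, with those of muscle the highest. All 5 endothelial markers and the 3 sperm markers in the table were at 0, as were Krt5 and Trp63 of basal cells, Foxi1 of clear cells and Ptprc of immune cells. The 5 basal markers summed to 80.1 UPM, against 3862 UPM in basal cells of the vas deferens. The 5 muscle markers were all found and summed to 182 UPM, with 1 or more in 11.1% of cells, and the 6 stromal markers, of which Col1a1, Col3a1 and Pdgfra were at 0, summed to 85.6 UPM. In the vas deferens cells of principal 11 the muscle markers reached 442 UPM, above the 360 UPM of basal cells of that library.

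Few genes held a large part of the RNA of principal 11, and secreted products were among them. The 3 leading genes, Crisp1, Spink8 and Cd52, held 29.4% of its UMIs and the 15 leading genes 40.7%. Spink8, a Kazal-type protease inhibitor, stood at 67065 UPM, and Cd52, a glycoprotein that is passed to sperm, at 31441 UPM. The others were B2m, Wfdc10, Itm2b, Defb28, D730048I06Rik, Ptgds, Wfdc15b, Clu, Serpina1f, Cuzd1, Hspa5 and Defb2, in falling order of level.

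Almost no gene set principal 11 apart from every other principal population. Of 2127 genes with at least 20 UMIs, 1 gene, or 0.047%, reached 2-fold the level of the highest other population. That gene was Lypd3, which encodes a membrane-anchored protein of squamous and other epithelia, at 91.2 UPM (62.8 to 128 UPM, from 33 UMIs). Clca2, a calcium-activated chloride channel regulator, stood at 539 UPM in principal 11 and at 293 UPM in principal 9, the next highest principal population. It was level between the cauda cells (554 UPM) and the vas deferens cells (508 UPM). Neither gene was particular to principal cells. In basal cells of the vas deferens library Clca2 stood at 685 UPM and Lypd3 at 68.2 UPM. Principal 11 ranked first of the 15 populations for 97 genes, 4.56% of the 2127. With only cells of at least 1000 UMIs the count of 1 fell to 0, and with a 1.5-fold threshold it was 6.

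**Figure D2:**
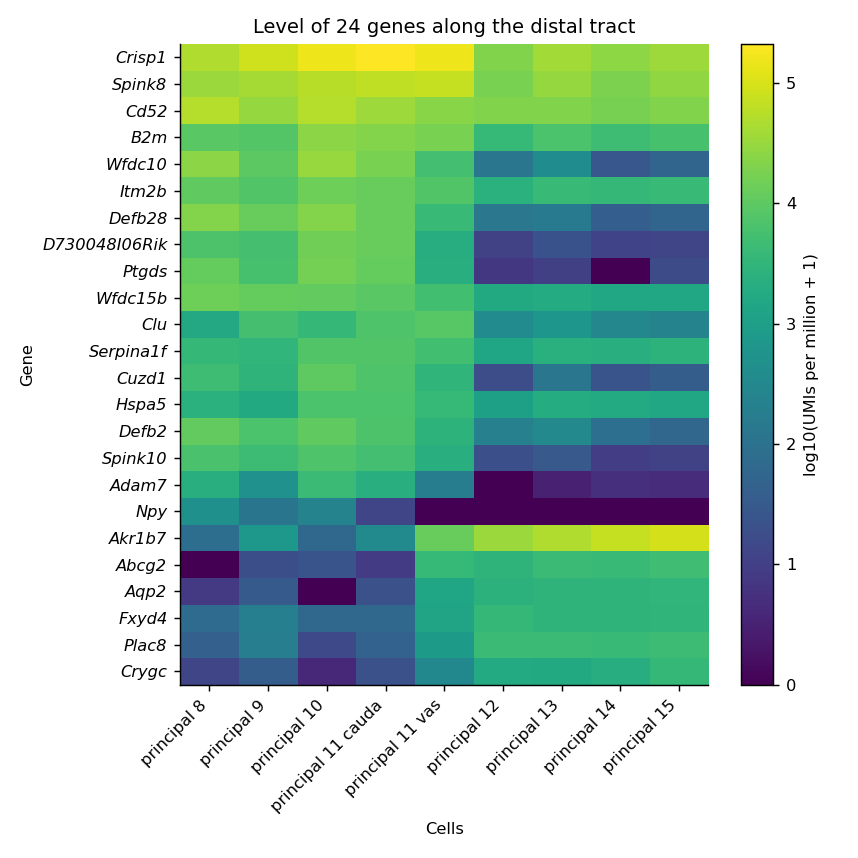
Levels of 24 genes (rows, log10 of UPM + 1 as colour) in principal 8 to 10, in the cauda and the vas deferens cells of principal 11, and in principal 12 to 15 (columns). Crisp1 peaks in the cauda cells of principal 11 at 211460 UPM, and Akr1b7 and Abcg2 pass from low levels in its cauda cells to 12089 and 3775 UPM in its vas deferens cells.

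Against principal 10, the cauda population with the next highest Crisp1, 303 of 2398 genes were higher in principal 11 (12.6%) and 99 were lower (4.13%). Genes of the vas deferens were among those with the largest ratios. Of 14 genes that the study named for the vas deferens, 11 were higher and 0 lower, but that list was chosen on these samples and is not independent evidence. Akr1b7 stood at 3780 UPM against 62.3 UPM (60.7-fold, 39.9 to 97.1) and Abcg2, an efflux transporter of urate and many drugs, at 1113 UPM against 22.7 UPM. Aqp2, the water channel that is best known from the kidney collecting duct, had 158 UMIs in principal 11 and 0 in principal 10 (at least 51.4-fold higher). Clu, which encodes the secreted chaperone clusterin, was 2.18-fold higher (2.04 to 2.34).

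Several secreted products were lower than in principal 10. Npy, a neuropeptide, had 3 UMIs in principal 11 against 85 in principal 10, a 29.0-fold difference (9.61 to 144). Defb38 stood at 27.6 UPM against 210 UPM, and Adam7, a sperm-bound membrane protein, at 1663 UPM against 4351 UPM. Of 12 beta-defensins compared, 6 were lower and 1 higher, and their summed share of UMIs was 2.19% against 4.29%.

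These counts depended on which library the cells came from. With the cauda cells of principal 11 alone, 88 genes were higher and 96 lower than in principal 10, and Abcg2 was near absent on both sides. It had 2 UMIs in the cauda cells of principal 11 (7.86 UPM) and 1 in those of principal 10 (2.93 UPM), so that no direction can be given, and 7 of the 8 UMIs of principal 10 came from its 16 vas deferens cells. With the vas deferens cells alone, 304 genes were higher and 352 lower. Fewer genes were thus higher with the cauda cells alone than in the pooled cells, and about as many were lower.

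Against principal 12 to 15, the 4 vas deferens populations, 367 of 8923 genes were higher in principal 11 (4.11%) and 1815 were lower (20.3%). With the vas deferens cells of principal 11 alone, 134 were higher and 569 lower. Ptgds, which makes prostaglandin D2 and also carries lipids, stood at 8960 UPM against 8.36 UPM (1071-fold, 776 to 1524). D730048I06Rik was 665-fold higher and Adam7 920-fold higher (464 to 2140). The cauda cells carried much of these ratios, since in the vas deferens cells of principal 11 alone Ptgds stood at 2260 UPM, D730048I06Rik at 2109 UPM and Adam7 at 179 UPM. Of the 9 WFDC inhibitors compared, 8 were higher and 0 lower, and of 22 endoplasmic reticulum chaperones and folding enzymes, 13 were higher and 2 lower, Calr for example at 2799 UPM against 479 UPM.

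Genes of energy supply and translation ran the other way. Of 79 nuclear-encoded respiratory chain and ATP synthase genes, 56 were lower and 0 higher in principal 11, and their share of UMIs was 1.63% against 4.84%. Cox6c, a subunit of cytochrome c oxidase, stood at 1119 UPM against 4580 UPM. Of 80 cytosolic ribosomal protein genes, 45 were lower and 0 higher. Since Crisp1 and a few others take so much of the UMIs in principal 11, the levels were also computed without the 20 most abundant genes of principal cells. The median log2 ratio over all genes then moved from -0.20 to 0.11, with 514 genes higher and 1134 lower. Low levels of these 2 lists were not seen against principal 10. There 19 of 70 respiratory chain and ATP synthase genes were higher and 0 lower, with 1.63% against 1.08% of UMIs. Of 77 ribosomal protein genes, 11 were higher and 0 lower, with 7.39% against 5.15% of UMIs. Of all genes in that comparison, 12.6% were higher and 4.13% lower.

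The cauda and the vas deferens cells of principal 11 shared some, but not all, of their most abundant products. Of the 15 leading genes, Wfdc10, Defb28, D730048I06Rik, Ptgds, Cuzd1 and Defb2 were at least 2-fold lower in the vas deferens cells. Crisp1 stood at 211460 UPM in the cauda cells and 158394 UPM in the vas deferens cells, a ratio of 0.749 (0.736 to 0.762). Spink8 stood at 64724 and 71647 UPM. Clu stood at 7340 and 8756 UPM. Each of these was within 2-fold of equal. Crisp1 and Spink8 were well above the level in basal cells of the vas deferens, at 274 and 406 UPM. The main clear cells of that library (25 cells) held more of such RNA than basal cells. Crisp1, Wfdc10 and Spink10 summed to 6491 UPM in these clear cells and 308 UPM in the basal cells. In the vas deferens cells of principal 11 they summed to 166161 UPM.

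Beyond these, 218 of 1407 genes were higher in the vas deferens cells than in the cauda cells of principal 11 (15.5%) and 173 were lower (12.3%). Transporters and enzymes that are abundant in principal 12 to 15 had some of the largest ratios. Abcg2 stood at 3775 UPM in the vas deferens cells (3415 to 4164) and at 7.86 UPM in the cauda cells, where it had 2 UMIs, a ratio of 480 (132 to 3979). The level in the vas deferens cells was close to the 3818 UPM of principal 12 to 15. Aqp2 stood at 1440 UPM against 19.7 UPM, a ratio of 73.3 (30.7 to 229). Akr1b7 stood at 12089 UPM against 330 UPM, a ratio of 36.6 (29.3 to 46.2), but below the 54073 UPM of principal 12 to 15.

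The stretches before the starts of 4 genes are shown because these genes were shared (Crisp1) or told the cells apart (Wfdc10, Akr1b7 and Aqp2). Each is the 250 bases before the start in the RefSeq table for GRCm38.p6, 5′ to 3′ on the strand of the gene, at chr17:40319208-40319457 (minus strand), chr2:164655796-164656045 (plus), chr6:34412112-34412361 (plus) and chr15:99578806-99579055 (plus). Capitals mark TGTTCT or its reverse complement AGAACA, the 6-base half-site of the androgen receptor and of related steroid receptors.
Crisp1: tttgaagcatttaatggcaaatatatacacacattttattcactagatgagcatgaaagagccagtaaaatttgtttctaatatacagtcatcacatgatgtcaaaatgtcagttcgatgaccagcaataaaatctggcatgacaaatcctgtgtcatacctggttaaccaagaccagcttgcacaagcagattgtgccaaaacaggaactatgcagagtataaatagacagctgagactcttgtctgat
Wfdc10: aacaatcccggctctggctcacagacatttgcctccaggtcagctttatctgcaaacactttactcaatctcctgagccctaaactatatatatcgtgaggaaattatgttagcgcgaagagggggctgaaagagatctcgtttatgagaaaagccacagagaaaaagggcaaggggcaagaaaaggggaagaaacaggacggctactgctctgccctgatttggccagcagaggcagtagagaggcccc
Akr1b7: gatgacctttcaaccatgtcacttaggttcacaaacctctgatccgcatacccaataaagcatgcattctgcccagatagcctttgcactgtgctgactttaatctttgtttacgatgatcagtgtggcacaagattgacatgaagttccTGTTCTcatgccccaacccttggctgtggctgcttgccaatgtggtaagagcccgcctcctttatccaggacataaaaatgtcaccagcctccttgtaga
Aqp2: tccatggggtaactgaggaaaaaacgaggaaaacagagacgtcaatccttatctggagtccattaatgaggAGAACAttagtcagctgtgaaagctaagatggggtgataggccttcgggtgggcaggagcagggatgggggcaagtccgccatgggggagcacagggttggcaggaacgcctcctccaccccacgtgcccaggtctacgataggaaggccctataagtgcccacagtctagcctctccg
Akr1b7 and Aqp2 held 1 match each and Crisp1 and Wfdc10 held 0. Of the 32851 stretches in the table, 16.1% held at least 1 match on either strand, so that a match is common. It is a description of these letters and not of binding.

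Akr1b7 also differed between the libraries in other cells. In basal cells, which are not known to make it, Akr1b7 had 883 UPM in the vas deferens library and 0 UMIs in the cauda library, and the part of the library in the difference within principal 11 was not tested. Abcg2 in basal cells was at 54.0 UPM in the vas deferens library and 9.02 UPM in the cauda library, far below 3775 UPM. The main clear cells of the vas deferens library held more than its basal cells. Akr1b7, Abcg2, Crygb, Crygc and Fxyd4 summed to 5564 UPM in these clear cells and 1008 UPM in the basal cells. They summed to 17521 UPM in the vas deferens cells of principal 11. Actg2 and Mylk, genes of smooth muscle contraction, also were among the largest differences, at 320 and 311 UPM in the vas deferens cells. The 5 muscle markers summed to 442 UPM in those cells and 70.8 UPM in the cauda cells, Actg2 in basal cells had 109 UMIs in the vas deferens library (96.5 UPM) and 1 in the cauda library, and the part of muscle RNA in this was not tested.

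Fxyd4, which tunes the sodium pump, stood at 1280 UPM in the vas deferens cells and 62.9 UPM in the cauda cells. Ptges, the terminal enzyme of prostaglandin E2 synthesis, stood at 2147 and 511 UPM (4.20-fold, 3.37 to 5.25), and Ptgs2, the inducible cyclooxygenase before it, at 2796 and 1101 UPM (2.54-fold, 2.15 to 3.00). Ptgds of the prostaglandin D2 branch went the opposite way, at 2260 UPM in the vas deferens cells and 11798 UPM in the cauda cells (5.22-fold lower). Of the 9 genes of prostaglandin synthesis and transport compared, 6 were higher and 1 lower in the vas deferens cells. That list includes Akr1b7, Ptgr1, Ptges, Ptgs2 and Slco2a1, which the study named for the vas deferens from these same samples. The count is therefore not independent evidence.

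Among the genes lower in the vas deferens cells were secreted and surface products of the cauda. Adam7 stood at 179 UPM in the vas deferens cells and 2292 UPM in the cauda cells (12.8-fold lower). Spink5, which encodes a multidomain protease inhibitor, was 11.1-fold lower and Mme, the membrane endopeptidase neprilysin, 8.77-fold lower. Wfdc10 stood at 5508 and 17887 UPM (3.25-fold lower). Of 9 beta-defensins compared, 6 were lower and 1 higher, and of 8 WFDC inhibitors 5 were lower and 0 higher. Of 56 respiratory chain and ATP synthase genes 19 were higher and 1 was lower. Without the 20 most abundant genes in the total, the median log2 ratio over all genes moved from 0.21 to 0.06, with 172 genes higher and 209 lower.

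**Figure D3:**
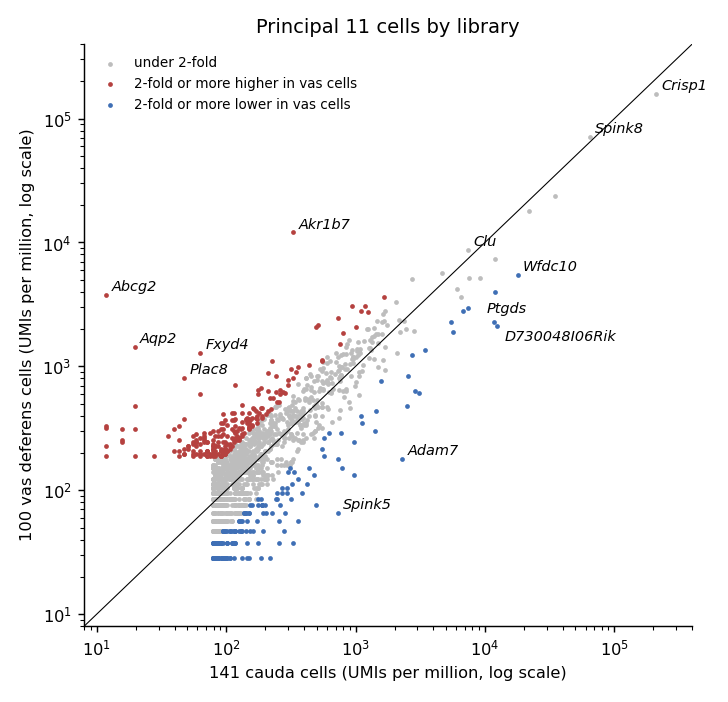
Level of each of the 1407 genes compared (points) in the cauda cells (horizontal axis) and in the vas deferens cells (vertical axis) of principal 11, in UPM on log scales, with levels under 3 UMIs drawn at 3 UMIs and the line of equal levels. Crisp1 and Spink8 lie near the line at the top right, Abcg2, Aqp2 and Akr1b7 above it, and Adam7 and Spink5 below it.

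To place the cells between their neighbours, genes were called cauda-side or vas-side where principal 10 cells of the cauda library and principal 12 to 15 cells of the vas deferens library differed at least 4-fold. This gave 235 cauda-side and 829 vas-side genes of 8937 compared. Cauda-side genes held 43.1% of the UMIs of principal 10 in the cauda, 42.1% of the cauda cells of principal 11, 25.7% of its vas deferens cells and 4.90% of principal 12 to 15. Vas-side genes held 4.30%, 6.88%, 15.7% and 37.9% in the same order. The cauda cells of principal 11 were thus near principal 10 on both lists, and its vas deferens cells were between the neighbours on both. Such a position was not particular to them. Cells of the cauda library in principal 8 had 24.6% cauda-side and 14.3% vas-side UMIs, and those in principal 9 had 22.9% and 17.7%. In the vas deferens library, the 26 cells of principal 9 had 19.8% and 20.1%. The 16 cells of principal 10 in that library had 40.3% and 5.68%. The vas-side list is not particular to the vas deferens, since it also held 22.8% of the UMIs of basal cells in the cauda library and 22.3% in the vas deferens library. Without the 3 leading genes of each list, which are Crisp1, Wfdc10 and B2m on the cauda side and Akr1b7, Mt1 and Crip1 on the vas side, the vas deferens cells had 7.54% cauda-side and 13.7% vas-side UMIs, and the cauda cells 17.0% and 6.37%.

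Single vas deferens cells of principal 11 differed from their average. Abcg2 was found in 37 of the 100 cells and Wfdc10 in 54, but only 7 cells had both. Of the 37 cells with Abcg2, 7 had Wfdc10 (18.9%, 7.96 to 35.2%), against 47 of the 63 cells without it (74.6%, 62.1 to 84.7%). The median depth was 644 UMIs in the cells with Abcg2 and 531 in those without. The 7 cells with both genes were deeper, with a median of 1405 UMIs. It was 474.5 UMIs with Abcg2 alone and 658 with Wfdc10 alone, and the part of depth in the split was not tested. This split into cells was chosen after the values were seen, and no test was made of it.

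The neighbouring populations each held mainly 1 of the genes. Among principal 12 to 15 cells of the vas deferens library, 69.2% had Abcg2 without Wfdc10 2.07% had Wfdc10 without Abcg2 and 6.20% had both. The 75 cells with both were deep, with a median of 6178 UMIs, and outnumbered the 25 with Wfdc10 alone, so that the genes were not kept apart there. Among the cauda cells of principal 11, 108 of 141 had Wfdc10 without Abcg2 and 1 had Abcg2. Among principal 10 cells of the cauda, 161 of 166 had Wfdc10 without Abcg2. As a background, after 500 UMIs had been drawn from each cell, Wfdc10 was found in 1.05% of basal cells of the vas deferens library (median depth 3778 UMIs) and Abcg2 in 1.74%, against 64.9% and 33.3% of the vas deferens cells of principal 11. Without the drawing, the shares were 4.81% and 5.15% of basal cells against 54% and 37%.

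The 30 cells with Abcg2 alone and the 47 with Wfdc10 alone both were rich in Crisp1, which stood at 203099 UPM in the former (197247 to 209081) and 166173 UPM in the latter (162843 to 169553). Spink8 stood at 94848 and 66073 UPM. These levels were above the 29531 and 23745 UPM of principal 12 to 15 cells of the vas deferens library. The 5 muscle markers summed to 757 UPM with Abcg2 alone and 386 UPM with Wfdc10 alone, and their part in the differences was not tested.

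Akr1b7, Aqp2 and Acer3 were higher in the cells with Abcg2. The vas-side list as a whole was not, once its 3 leading genes and Abcg2 were left out. It then held 12.3% of the UMIs of the cells with Abcg2 alone and 12.8% of those with Wfdc10 alone. Akr1b7 stood at 30503 UPM in the cells with Abcg2 alone (28261 to 32875) and 4648 UPM in the cells with Wfdc10 alone (4105 to 5243), a ratio of 6.56 (5.69 to 7.59). It was found in 34 of the 37 cells with Abcg2 and in 19 of the 63 without. Aqp2 stood at 5522 and 70.2 UPM, a ratio of 78.7 (30.0 to 293), and Acer3, an alkaline ceramidase, at 1826 and 70.2 UPM, a ratio of 26.0, with 18 and 3 cells holding it. Abcg2 itself, at 15674 UPM in the cells it defined, was above the 3829 UPM of principal 12 to 15, which was fixed in part by the choice of cells.

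Ptgds, Cuzd1 and Defb28 were higher in the cells with Wfdc10. The cauda-side list, without its 3 leading genes (Wfdc10 among them), held 10.1% of the UMIs with Wfdc10 alone and 3.58% with Abcg2 alone. Ptgds had 229 UMIs in the cells with Wfdc10 alone (4017 UPM) and 0 in the cells with Abcg2 alone, at least 30.1-fold higher. D730048I06Rik had 202 UMIs and 0, at least 26.5-fold higher. Cuzd1 stood at 4332 UPM with Wfdc10 alone and 401 UPM with Abcg2 alone (10.8-fold higher). Clu stood at 9384 UPM with Wfdc10 alone and 1603 UPM with Abcg2 alone (5.85-fold higher, 4.17 to 8.45). It was at 16103 UPM in the 7 cells with both genes, so that it was not low in all cells with Abcg2. Clu was found in 14 of the 37 cells with Abcg2 (37.8%, 22.5 to 55.2%) and 36 of the 63 without (57.1%, 44.0 to 69.5%). No test was made of these shares. Defb28, a beta-defensin, had 380 UMIs and 3, and Spink10 had 215 UMIs and 2. In principal 12 to 15 of the vas deferens, Cuzd1 was at 52.6 UPM and Clu at 415 UPM.

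**Figure D4:**
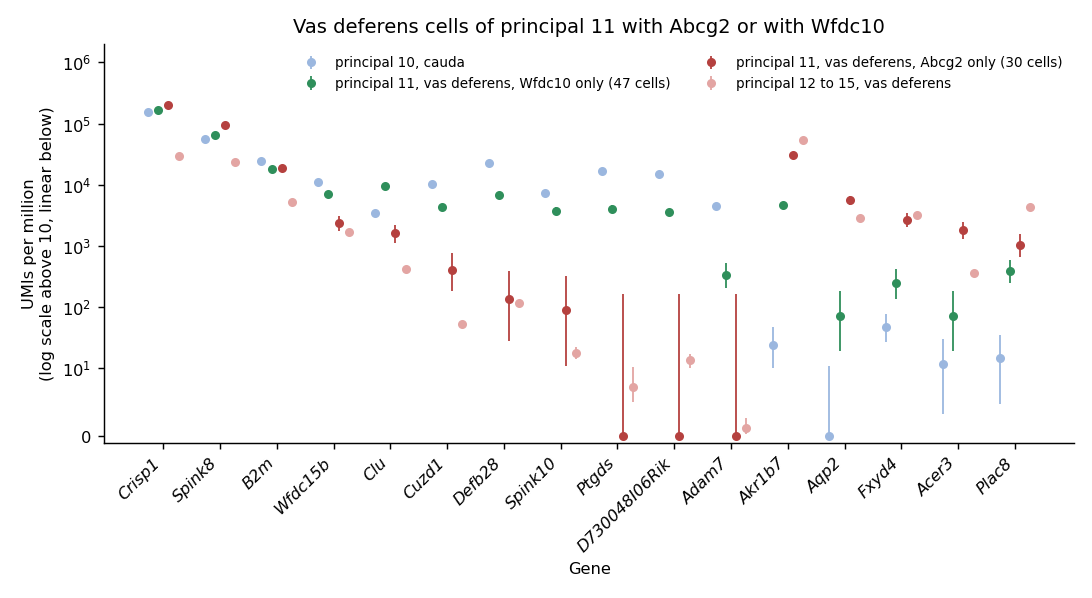
Level in UPM (vertical axis, log scale above 10 and linear below) of 16 genes (horizontal axis) that did not define the cells, in the vas deferens cells of principal 11 with Wfdc10 only (47 cells) or Abcg2 only (30 cells), beside principal 10 of the cauda and principal 12 to 15 of the vas deferens. Bars are exact 95% Poisson intervals. Crisp1 and Spink8 are high in both kinds of cell, Ptgds, D730048I06Rik and Adam7 have 0 UMIs in the cells with Abcg2 only, and Akr1b7, Aqp2 and Acer3 are lower in the cells with Wfdc10 only.

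Ambient RNA had been removed from these counts by the authors. In the vas deferens cells of principal 11, 70.1% of all values above 0 were single UMIs, yet 0 of the 100 cells had exactly 1 UMI of Abcg2 and 0 had exactly 1 of Wfdc10. The part of this step in the split was not tested. Among the 28 vas deferens cells with at least 1000 UMIs, 4 of 10 with Abcg2 had Wfdc10 (40.0%) and 17 of 18 without Abcg2 had it (94.4%). Leaving out the called doublet made the share 6 of 36 cells with Abcg2 (16.7%).

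The split was also present in cells of the cauda-rich first-round cluster alone, where 4 of 28 cells with Abcg2 and 45 of 57 without it had Wfdc10. A group of 7 cells had both genes, and their summed levels were 16103 UPM for Clu and 13491 UPM for Akr1b7. The other 16 cells, with neither gene, were the shallowest, with a median of 352 UMIs.

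**Figure D5:**
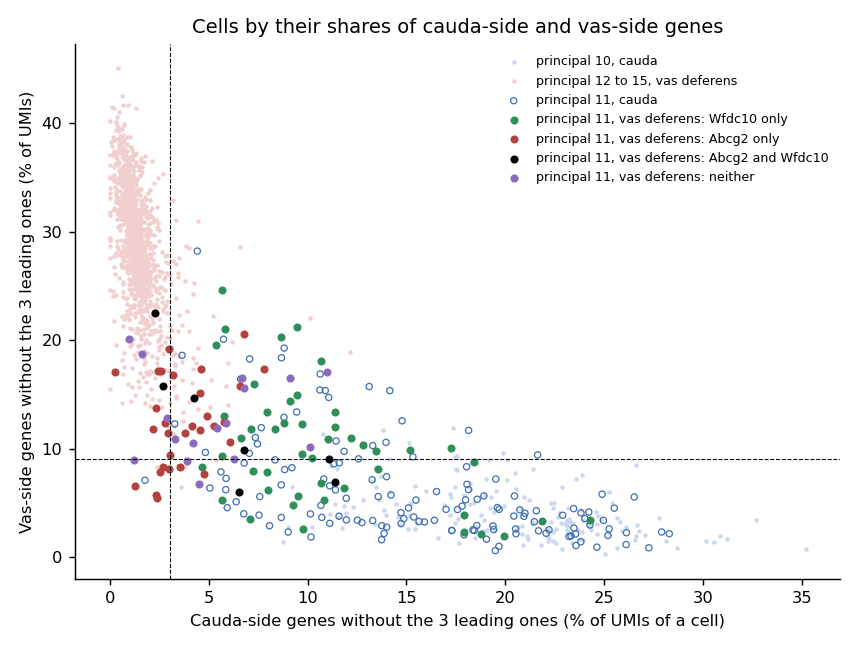
Each point is a cell, placed by the percent of its UMIs on cauda-side genes (horizontal axis) and vas-side genes (vertical axis), each without the 3 leading genes. Dashed lines mark the 95th percentile of principal 10 cells of the cauda for vas-side genes (9.06%) and of principal 12 to 15 cells of the vas deferens for cauda-side genes (3.04%). Of the vas deferens cells of principal 11, 53 of 100 lie above both lines, against 30 of 141 of its cauda cells.

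By these lists, cells with mixed shares were found in principal 11 and in other cauda populations. With all genes of the lists, the median cell of principal 8 in the cauda had 22.2% cauda-side and 14.8% vas-side UMIs and that of principal 9 had 24.3% and 17.8%, above the limits of 12.3% and 9.56% set in the same way. Above both of these limits were 69 of the 100 vas deferens cells and 27 of the 141 cauda cells of principal 11. So were 9 of 166 principal 10 cells and 60 of 1209 principal 12 to 15 cells. Without the 3 leading genes of each list, the limits were 3.04% cauda-side and 9.06% vas-side. Above both were then 53 of the 100 vas deferens cells and 30 of the 141 cauda cells of principal 11. The neighbours then had 9 of 166 principal 10 cells and 58 of 1209 principal 12 to 15 cells above both. All 47 cells with Wfdc10 alone passed the cauda-side limit and 27 of them passed both. Of the 30 cells with Abcg2 alone, 22 passed the vas-side limit and 14 passed both. Abcg2 itself stayed in the vas-side list, so these 2 counts were fixed in part by the choice of cells. The limits were themselves set on the neighbours, so that about 5% of each neighbour lay beyond its own limit by construction.

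The variance of Crisp1 between cells was 49.6 times that expected from counting alone in the cauda cells and 48.9 times in the vas deferens cells, a measure that grows with the level of a gene. It was found in 99.3% and 99.0% of these cells. In the middle 50% of cauda cells Crisp1 took from 15.7% to 28.1% of the UMIs of a cell, and in the vas deferens cells from 13.3% to 22.7%. Clu was concentrated, with 76.1% of its UMIs in the vas deferens library in the 10 cells that held most of it. The chemokine gene Cxcl1 had all its 118 UMIs of the vas deferens library in 10 cells, 6 of which had Abcg2 alone. Over all genes with at least 50 UMIs, 215 of 447 in the cauda cells and 135 of 232 in the vas deferens cells varied more than 2 times the counting variance.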

How the data were processed

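Single-cell RNA libraries were made with 10x 3′ chemistry (V2), 1 per region. Per the study's methods, the authors demultiplexed reads with bcl2fastq, took barcodes and UMIs with umi_tools, aligned to mm10 with HISAT2 2.0.4 and made UMI counts per gene with ESAT, leaving out reads that mapped to several places. They then removed estimated ambient RNA with a modified SoupX, and deposited whole-number counts of 16892 genes in 8880 cells, and beside them the library and population of every cell. Genes with near-identical copies, such as beta-defensins, may thus be undercounted. The deposited populations carry other numbers than the study's text, and principal 11 was matched by its number of cells.

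UMIs of a gene were added up within each group of cells. Exact Poisson intervals were used for levels, exact conditional intervals for ratios and Clopper-Pearson intervals for shares, all at 95%. Shares of cells with a UMI were also computed after 500 UMIs had been drawn from each cell, leaving out shallower cells (50 cauda and 43 vas deferens cells of principal 11). Doublets were simulated and scored by nearest neighbours within each library, and were left out only as an alternative. With 1 library per region no test between samples was made. Named genes were the 15 with the highest level, the 10 with the largest ratio to the highest other population, the 8 largest ratios in each direction of each comparison, the 5 with the largest spread per library, markers, and members of gene lists that were called or had the most UMIs. Lypd3 is of the second kind. The genes of the Abcg2 and Wfdc10 split, and that split itself, were chosen after values were seen. The members and lists were chosen with earlier results of these data known. Scripts were tested on simulated data. Tools were Python 3.11.15, numpy 2.4.6, pandas 2.3.3, SciPy 1.17.1, scikit-learn 1.9.0 and matplotlib 3.10.9. Alternatives changed the fold, the UMI minimum, the cells kept, the total, the reference population and the doublets.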

Additional observations from a re-analysis of the deposited data

Results flagged for a closer look

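The 3 corpus cells of principal 11 were in neither the cauda nor the vas deferens group. They held 1358 UMIs in all, yet 55 of the 104 UMIs of AY761185 in principal 11 (52.9%). This is 40501 UPM (30511 to 52717), against 177 UPM in its cauda cells, 37.7 UPM in its vas deferens cells and 23380 UPM in all principal cells of the corpus library. The same cells held 93 of 94 UMIs of Lcn5 and 19 of 19 of Spint4. These values were singled out because the comparison of vas deferens with cauda cells left these 3 cells out. The comparisons of the whole of principal 11 with other populations kept them. Without the corpus cells, 298 genes were higher and 101 lower than in principal 10. A level of AY761185 in pooled principal 11 cells therefore rests mostly on 3 cells.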

How the results depend on the processing

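No paired analysis was possible because each region has 1 library. Of the values that answer a comparison, 84 stayed within their limits under an alternative and 77 moved. Of single genes and lists, 934 stayed, 400 moved and 15 changed direction. The cause was not tested. Groups with few UMIs limit the counts, since 3 UMIs are 52.6 UPM in the cells with Wfdc10 alone and 134 UPM in those with Abcg2 alone.

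Genes above every other population were 6 with a fold of 1.5, 0 with 3, 2 from 10 UMIs, 0 from 50 UMIs, 0 in cells of 1000 UMIs, 2 as means over cells, 3 without 20 abundant genes in the total and 6 without principal 10. Against principal 10, higher and lower genes were 624 and 344 with a fold of 1.5, 99 and 23 with 3, 612 and 328 from 10 UMIs, 102 and 32 from 50 UMIs and 136 and 526 with principal 8 to 10 as reference. Higher genes were 88 with cauda cells only, and lower genes were 352 with vas deferens cells only and 175 as means over cells. Against principal 12 to 15 they were 574 and 3064 with a fold of 1.5, 204 and 693 with 3, and 134 and 569 with vas deferens cells only. Higher genes were 612 from 10 UMIs and 181 from 50, and lower genes 1134 without the 20 genes. Between vas deferens and cauda cells they were 355 and 307 with a fold of 1.5, 88 and 73 with 3, and 45 and 59 from 50 UMIs, and higher genes were 484 from 10 UMIs.

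Cauda-side and vas-side shares were 58.7% and 17.0% of the cauda cells and 40.6% and 31.5% of the vas deferens cells with 2 times between the neighbours. With 8 times they were 13.7% and 1.70%, and 5.09% and 6.23%. Without the 3 leading genes they were 17.0% and 6.37%, and 7.54% and 13.7%. With principal 8 to 10 as the cauda side they were 16.3% and 2.04%, and 6.66% and 7.58%. In cells of 1000 UMIs they were 42.8% and 7.13%, and 24.6% and 17.6%. In cells of 500 UMIs the cauda-side share of the cauda cells was 42.5%, and the vas deferens cells had 25.3% and 16.4%. Without doublets these were 42.7%, 26.0% and 16.1%. From 50 UMIs the cauda-side shares were 41.4% and 25.4%. Of cells of 1000 UMIs, 69.9% came from the cauda and 30.1% from the vas deferens.

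Chosen after seeing the data, keeping only cells of the cauda-rich first-round cluster gave 2 genes above every other population, 182 higher than in principal 10, 121 higher in vas deferens cells, and shares of 43.2% and 6.45% in cauda cells and 30.0% and 13.7% in vas deferens cells. Also chosen then, Wfdc10 was in 40.0% of cells with Abcg2 and 94.4% without at 1000 UMIs, and in 86.8% without after thinning.

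Directions changed as follows, as log2 ratios. With cauda cells only, against principal 10, Abcg2 was -0.94, from 2 UMIs raised to 3 against 8 UMIs of which 1 came from cauda cells, so that no change of direction is shown for it. Serpins were 0.027, ion and water transport genes -0.26, metal-handling genes -0.052 and crystallins -0.14. With vas deferens cells only, against principal 10, sperm-binding proteins were -0.27, prostaglandin genes 0.17 and the cauda genes named by the study -0.24, and against principal 12 to 15 cystatins were 0.43 and early response genes 0.12. Without the 20 genes, cystatins were 0.050 and early response genes 0.18 against principal 12 to 15, and Kazal inhibitors -0.10 and secretory translocon genes -0.0032 between vas deferens and cauda cells. In cells of 500 UMIs the Kazal inhibitors were -0.0091.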
